A study of Mus musculus with 7 samples.

Results

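The Ly6 surface antigen genes described here are 7 neighbours on mouse chromosome 15, Ly6a, Ly6c1, Ly6c2, Ly6d, Ly6e, Ly6k and Ly6i, out of 46959 features in the deposited table. They were taken by name, with their difference between wild-type and cKO MED1 libraries already known. Their values in that comparison are therefore given as a description, without a test. RNA came from splenic B cells of 2 genotypes, wild type (WT, n = 3) and cKO MED1 (n = 4), the second after Med1, which belongs to Mediator, the complex between enhancers and RNA polymerase II. Cells of both genotypes had been kept for 4 days with lipopolysaccharide (LPS, a bacterial activator of B cells, at 1 µg/mL) and interleukin 4 (IL-4, a cytokine that directs antibody class switching, at 20 ng/mL). The strain, age and number of the mice, the driver of the deletion and the proof of deletion are not given in the sources used here. Whether the replicates are separate mice is not stated either, and p-values then cover only the spread of these cultures, which may be technical.

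Ly6 proteins are small surface proteins built on the disulfide-bonded Ly6/uPAR fold, and most of them are held in the membrane by a glycosylphosphatidylinositol (GPI) anchor. Ly6a is Sca-1, a marker of blood stem cells that activated lymphocytes also carry. Ly6c1 and Ly6c2 encode the Ly6C antigens of monocytes, memory T cells and plasma cells. Ly6d marks the lymphoid progenitors that go on to make B cells, and Ly6e is a broadly made, interferon-induced member. Interferons raise Ly6a, Ly6c and Ly6e in several immune cell types. Ly6k is best known from male germ cells.

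Ly6c1 and Ly6c2 come first because their difference was the largest and because their sequences are almost the same. Their coding sequences had 97.7% identity, with 9 mismatches over 396 aligned bases and no gap. The first 150 coding bases, from the GENCODE transcripts of GRCm38 and written 5′ to 3′, show 6 of these 9 positions in capitals.
Ly6c1: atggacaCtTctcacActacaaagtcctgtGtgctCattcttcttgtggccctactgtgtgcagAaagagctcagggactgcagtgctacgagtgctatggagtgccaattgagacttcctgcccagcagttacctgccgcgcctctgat
Ly6c2: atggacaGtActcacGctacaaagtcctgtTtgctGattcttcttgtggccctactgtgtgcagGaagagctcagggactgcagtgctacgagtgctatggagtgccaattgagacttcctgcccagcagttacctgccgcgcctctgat
The longest stretch that both transcripts shared without a mismatch was 188 bases, longer than the 150 bp reads. Of 673 windows of 150 bases in the Ly6c2 transcript, 39 were found exactly in the Ly6c1 transcript. A single read from those windows cannot be assigned to one of the genes by its own sequence. Reads came in pairs, and the other read of a pair may lie outside them. How far both genes' counts are uncertain for this reason was not tested. No other pair of members shared a window of 150 bases. Ly6i and Ly6a followed with 86.4% coding identity and a longest shared run of 80 bases. The other pairs among Ly6a, Ly6c1, Ly6c2 and Ly6i had 81.5% to 82.0% identity. Ly6d, Ly6e and Ly6k had 45.2% to 52.8% identity with the rest and with each other, and no shared run over 13 bases.

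The 250 bases before the RefSeq start sites of Ly6c1 and Ly6c2 differed more than the coding parts did, which is why they are shown. Both lie on the minus strand of GRCm38.p6, Ly6c1 at chr15:75048838-75049087 and Ly6c2 at chr15:75111972-75112221. Capitals mark the runs of at least 12 bases that both windows hold, which came to 47 bases in each.
Ly6c1: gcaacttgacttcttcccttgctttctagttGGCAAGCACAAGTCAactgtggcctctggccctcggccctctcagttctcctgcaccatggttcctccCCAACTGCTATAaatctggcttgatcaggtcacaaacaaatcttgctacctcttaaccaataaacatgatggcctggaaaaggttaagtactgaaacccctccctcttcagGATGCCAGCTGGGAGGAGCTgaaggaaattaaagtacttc
Ly6c2: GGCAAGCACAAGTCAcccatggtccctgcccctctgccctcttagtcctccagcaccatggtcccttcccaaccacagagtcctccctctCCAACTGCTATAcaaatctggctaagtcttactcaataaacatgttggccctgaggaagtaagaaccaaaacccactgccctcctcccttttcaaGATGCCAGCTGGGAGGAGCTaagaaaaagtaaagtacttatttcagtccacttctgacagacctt
Over the 300-base windows that add 50 bases after the start, identity was 62.3%, with 208 matches, 58 mismatches and 68 gap bases. Short motifs were searched on both strands. The core of the interferon-stimulated response element (GAAA and GAAA parted by 2 bases) had 0 matches in both windows and at least 1 in 3.44% of 32851 promoter windows of the same length. The interferon-gamma activated site TTCNNNGAA had 0 matches in both, against 8.30% of all promoters. The ETS-IRF composite element (GGAA and GAAA parted by 2 bases) had 0 matches in both, against 2.72% of all promoters. It can share its last bases with the response element core. The ETS core GGAAGT, found in 23.8% of all promoters, had 0 matches in Ly6c1 and 2 in Ly6c2. The TATA box TATAAA, found in 13.6% of all promoters, had 1 match in Ly6c1, beginning 143 bases before the start, and 0 in Ly6c2. The motifs were not all fixed beforehand, since 1 of them was added after the sequences had been read. The differences in the ETS core and the TATA box are therefore a description only. A match is only a match of letters, and its absence from these windows says nothing about a factor.

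Ly6c2 (ENSMUSG00000022584.14, chromosome 15 from 75108158 to 75111970, minus strand, GRCm38) had 1218, 1460 and 3275 reads in WT replicates 1 to 3 and 38, 18, 59 and 23 reads in cKO MED1 replicates 1 to 4. Scaled to a common library size, these are 839, 1191 and 2615 normalised reads in WT and 51.5, 17.5, 77.7 and 42.1 normalised reads in cKO MED1. All 4 cKO MED1 libraries were far below all 3 WT libraries, the lowest WT value being 10.8 times the highest cKO MED1 value. Group means were 1548 ± 940.4 in WT (SD, n = 3) and 47.2 ± 24.9 in cKO MED1 (SD, n = 4), so cKO MED1 held 3.05% of the WT level, a 32.8-fold difference. On the log2(normalised reads + 1) scale, used for all log2 differences here, cKO MED1 minus WT was -5.02 (SE 0.45). The WT libraries themselves spread 3.12-fold, with replicate 3 the highest. In bulk RNA, fewer cells that make a transcript and less transcript per cell cannot be told apart.

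Ly6c1 (ENSMUSG00000079018.10, chromosome 15 from 75044018 to 75048830, minus strand) was a low gene, and its cKO MED1 libraries were not ordered like those of Ly6c2. It had 92.9, 112 and 212 normalised reads in WT and 32.5, 21.4, 27.7 and 31.1 normalised reads in cKO MED1. The groups did not overlap, WT replicate 3 was again the highest, and cKO MED1 replicate 3, the highest of its group for Ly6c2, was the second lowest for Ly6c1. Group means were 139 ± 63.8 in WT (SD, n = 3) and 28.2 ± 4.94 in cKO MED1 (SD, n = 4), which left 20.3% of the WT level and a log2 difference of -2.18 (SE 0.29). The ratio of Ly6c2 to Ly6c1 reads was 9.02, 10.7 and 12.4 in WT and 1.58, 0.818, 2.81 and 1.35 in cKO MED1. The ratio was thus lower in all 4 cKO MED1 libraries than in any WT library, so the reads of Ly6c2 differed more than those of its near copy. In cKO MED1 replicate 2, Ly6c1 was the higher of the pair, at 22 reads against 18. Ly6c1 had 17 to 24 reads in the cKO MED1 libraries, so few that their order may be counting noise.

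Ly6a (ENSMUSG00000075602.10, chromosome 15 from 74994877 to 74998031, minus strand) had 19997, 20993 and 22269.5 normalised reads in WT and 11686, 9861, 13644 and 10642 in cKO MED1. Every cKO MED1 library was below every WT library, and replicate 3 was the highest within each group. Group means were 21086 ± 1139 in WT (SD, n = 3) and 11458 ± 1638 in cKO MED1 (SD, n = 4), which is 54.3% of the WT level and a log2 difference of -0.89 (SE 0.12). The lowest library held 5815 reads, so counting error is small beside the spread between replicates.

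Ly6e (ENSMUSG00000022587.14, chromosome 15 from 74955051 to 74959905, plus strand) was tightly grouped in WT, at 26768, 26742.5 and 27723 normalised reads. In cKO MED1 it had 22299.8, 21020.1, 19286 and 17185 normalised reads, all below the WT libraries. Group means were 27078 ± 559 in WT (SD, n = 3) and 19948 ± 2218 in cKO MED1 (SD, n = 4), which is 73.7% of the WT level and a log2 difference of -0.45 (SE 0.11). Unlike Ly6a and Ly6c2, which were lowest in cKO MED1 replicate 2, Ly6e was lowest in cKO MED1 replicate 4. Its log2 difference was -0.32 without cKO MED1 replicates 3 and 4, the libraries with the most reads on silent genes.

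Ly6d (ENSMUSG00000034634.7, chromosome 15 from 74762056 to 74763620, minus strand) had 3956, 4314 and 4312 normalised reads in WT and 2094, 2998, 3735 and 2866 in cKO MED1. The groups did not overlap but came close, the lowest WT value being 1.06 times the highest cKO MED1 value. Group means were 4194 ± 206 in WT (SD, n = 3) and 2923 ± 672 in cKO MED1 (SD, n = 4), which is 69.7% of the WT level and a log2 difference of -0.55 (SE 0.16).

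Ly6k and Ly6i did not share the direction of the other members, and their groups overlapped. Ly6k (ENSMUSG00000044678.11, chromosome 15 from 74796874 to 74799986, minus strand) had 73.7, 128 and 144 normalised reads in WT and 111, 206, 254 and 309 in cKO MED1. Replicate 1 of cKO MED1 lay among the WT libraries and the other 3 lay above them. Group means were 115 ± 36.8 in WT (SD, n = 3) and 220.1 ± 84.1 in cKO MED1 (SD, n = 4), a log2 difference of 0.89 (SE 0.32). Ly6i (ENSMUSG00000022586.11, chromosome 15 from 74979534 to 74983430, minus strand) was the lowest member in WT, with 21, 24 and 26 reads in WT and 16, 14, 19 and 29 reads in cKO MED1. As normalised reads these are 14.5, 19.6 and 20.8 in WT and 21.7, 13.6, 25.0 and 53.1 in cKO MED1. Its log2 difference of 0.46 (SE 0.43) was 0.13 without cKO MED1 replicate 4 and -0.06 without cKO MED1 replicates 3 and 4.

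**Figure D1:**
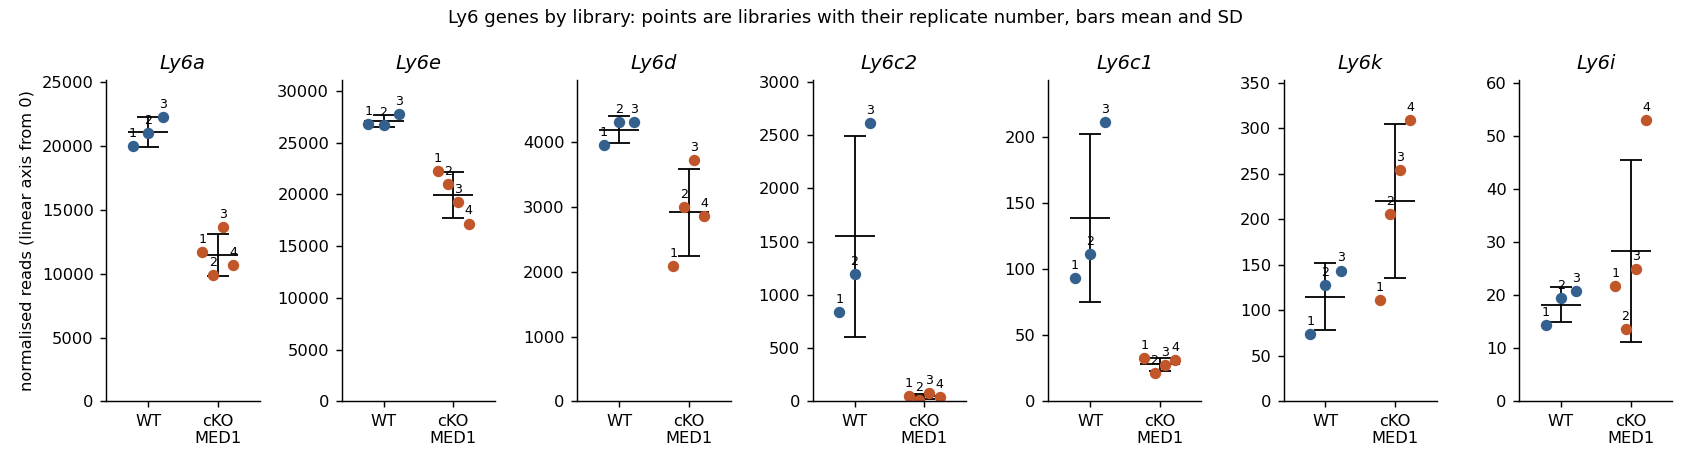
Normalised reads of the 7 Ly6 genes (y axes, linear, from 0) in WT and cKO MED1 libraries (x axes). Points are libraries with their replicate number, and bars give the mean and SD. The cKO MED1 points of Ly6a, Ly6e, Ly6d, Ly6c2 and Ly6c1 all lie below the WT points, whereas those of Ly6k and Ly6i overlap with them.

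All 7 members passed the filter on low reads. Of these, 5 had cKO MED1 libraries that were all below WT, and 0 had them all above. Across the 18062 genes tested, 19.8% had cKO MED1 libraries all below WT and 19.3% all above. At the adjusted p threshold of 0.05, 14.6% of all genes were called lower and 13.4% higher (28% in either direction). Since the members were chosen from this comparison, nothing is read from their count or their median. The median log2 difference was -0.55 over the members and 0.04 over all genes tested. Summed over the family, 51741, 53500.4 and 57295 normalised reads were counted in WT and 36296, 34138, 37050.0 and 31128.5 in cKO MED1. Ly6a supplied 38.6% to 39.2% of these reads in WT and 28.9% to 36.8% in cKO MED1, and Ly6e 48.4% to 51.7% and 52.1% to 61.6%. The share of Ly6c2 was 1.62%, 2.23% and 4.56% in WT and 0.142%, 0.0514%, 0.210% and 0.135% in cKO MED1. Ly6k supplied 0.142% to 0.251% in WT and 0.306% to 0.994% in cKO MED1.

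Levels of different genes were compared per kb of exon. Ly6a stood first, with 17499 ± 945 normalised reads per kb in WT (SD, n = 3) and 9509 ± 1359 in cKO MED1 (SD, n = 4). Ly6e followed with 7156 ± 148 and 5272 ± 586, and Ly6d with 5637 ± 277 and 3929 ± 904. The ranges of mean ± SD did not meet among these 3 genes in WT, whereas those of Ly6e and Ly6d overlapped in cKO MED1. Ly6c2 came next in WT with 565 ± 343 normalised reads per kb, but was last but one in cKO MED1 with 17.2 ± 9.07. Ly6k had 139 ± 44.4 in WT and 265 ± 101 in cKO MED1, where it took the place after Ly6d. Ly6c1 (82.8 ± 38.02 in WT, 16.8 ± 2.94 in cKO MED1) and Ly6i (15.8 ± 2.90 and 24.5 ± 14.8) were low in both. Ly6c2, Ly6c1 and Ly6i could not be ordered in cKO MED1, since their spreads overlapped, and neither could Ly6k and Ly6c1 in WT. With the length of a single GENCODE transcript per gene in place of all exons, Ly6c1 (164 ± 75.5 normalised reads per kb in WT) stood above Ly6k (146 ± 46.5) in WT, and Ly6i was the lowest member in cKO MED1. The first 3 places were the same with both lengths.

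Several facts of the libraries move with these values. Libraries held 31937372 to 61149274 reads, and the shallowest WT library (54736580 reads) was above the deepest cKO MED1 library (49603193 reads). Med1, the targeted gene, had 4755, 4173 and 4210.1 normalised reads in WT and 2585, 2172, 2249 and 2436 in cKO MED1, a fall of the mean to 53.9% of WT (log2 difference -0.89, SE 0.09, adjusted p = 0.000174). Ddx3y, a Y-linked gene, had 4496 to 4895 normalised reads in WT, 4469.9 in cKO MED1 replicate 3 and at most 4.07 in the other cKO MED1 libraries, so sex and genotype largely coincide and cannot be told apart for most libraries. Xist, made from the inactive X chromosome, had 36381 to 41073 normalised reads in cKO MED1 replicates 1, 2 and 4, 48.7 in replicate 3, and 59.2, 1241 and 11.2 in WT replicates 1 to 3, so WT replicate 2 stood apart with reads of both genes. Replicate 3 was the highest cKO MED1 library for Ly6a, Ly6c2 and Ly6d. With sex as a covariate, fitted on that 1 library, the log2 difference was -4.13 for Ly6c2, -2.19 for Ly6c1, -0.63 for Ly6a, -0.49 for Ly6e, -0.17 for Ly6d, 1.19 for Ly6k and 0.45 for Ly6i. With that covariate 228 genes were called in all, against 5065 without it. Leaving out WT replicate 1 left 1556 genes called, leaving out cKO MED1 replicate 4 left 2812, and leaving out cKO MED1 replicates 3 and 4 left 2145.

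Reads on genes that B cells do not make differed between libraries. Over 1613 olfactory and vomeronasal receptor genes, the level was 0.116, 0.235 and 0.191 normalised reads per kb in WT and 0.227, 0.312, 0.572 and 0.966 in cKO MED1. At that level per kb, background would supply at most 0.0540% of the Ly6c2 reads in any WT library, and 1.21%, 4.87%, 2.02% and 6.29% of them in cKO MED1 replicates 1 to 4. It would supply 1.17% to 5.21% of the Ly6c1 reads in cKO MED1. For Ly6k, which was ordered like the background over the cKO MED1 libraries, the share was 0.110% to 0.259% over all libraries, and for Ly6i it was 0.929% to 2.64%. After subtraction the log2 difference was -5.07 for Ly6c2, -2.22 for Ly6c1, 0.89 for Ly6k and 0.44 for Ly6i, and those of Ly6a, Ly6e and Ly6d were the same to 2 decimals.

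**Figure D2:**
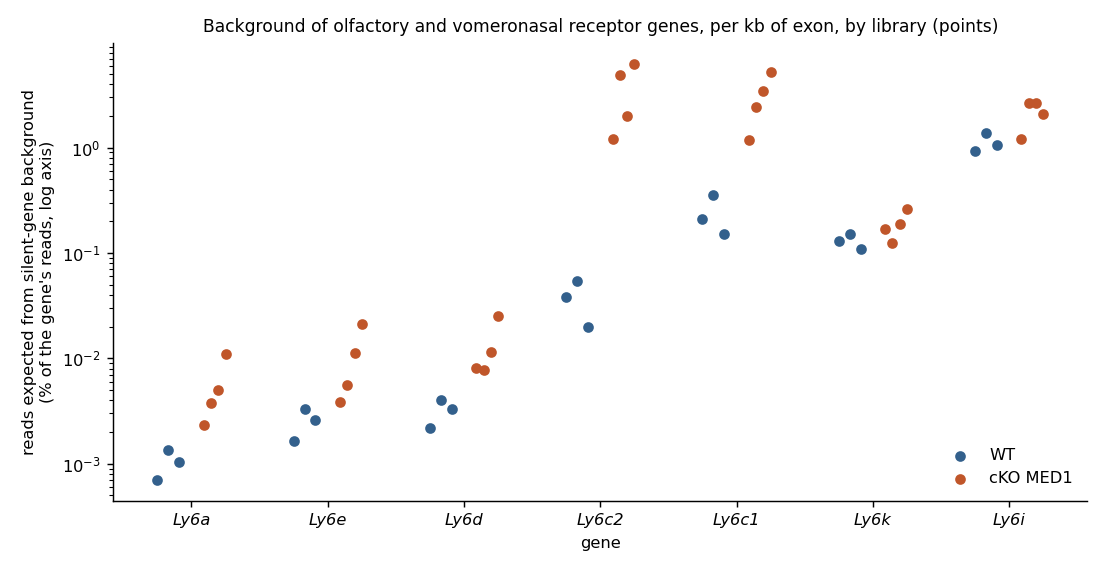
Share of each gene's reads that a background per kb of exon, measured on olfactory and vomeronasal receptor genes, would supply (y axis, %, log scale) for the 7 Ly6 genes (x axis), with 1 point per library. The highest share is 6.29%, for Ly6c2 in cKO MED1 replicate 4, and Ly6a, Ly6e and Ly6d lie lowest.

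Markers of B cells had 197367 to 213852 normalised reads in sum in WT and 141757 to 162030 in cKO MED1, with 6 of 10 genes lower and 1 higher. Calls in all marker lists stand beside 14.6% called lower and 13.4% called higher over all genes tested. Ly6C antigens also mark monocytes and plasma cells, so both lists were set beside Ly6c2. The 10 monocyte and macrophage markers summed to 445 to 754 normalised reads in WT and 598 to 875 in cKO MED1, 0 of the 8 tested were called, and their median log2 difference was 0.48. Lyz2 (16.3 to 75.1 normalised reads over the 7 libraries) was highest in WT replicate 3, whereas Csf1r (6.20 to 58.6), Ccr2 (1.38 to 42.1) and Itgam (29.6 to 121) were highest in cKO MED1 replicate 4. The 10 plasma cell markers summed to 134153 to 186801 in WT, also highest in replicate 3, and to 109855 to 143398 in cKO MED1. There 3 fell, Sdc1 by 1.22, Jchain by 1.58 and Txndc5 by 0.84 on the log2 scale, and 3 rose, Prdm1 (0.71), Irf4 (0.41) and Derl3 (0.61). Irf4 lost its call in 11 and Derl3 in 5 of 18 alternatives, and Prdm1 lost its call without cKO MED1 replicates 3 and 4. T cell markers summed to 1261 to 1717 normalised reads in WT and 1112 to 1311 in cKO MED1, with Cd3e at 0 to 9.15. Lck alone made up most of that sum, at 1215 to 1614 in WT and 913 to 1210 in cKO MED1. Of 9 tested 1 fell and 1 rose, and the list's median log2 difference was 0.52. NK cell markers summed to 174 to 269 and 93.5 to 266 (0 of 3 called), and neutrophil markers to 112 to 152 and 175 to 328 (1 of 3 higher). Conventional dendritic cell markers summed to 2609 to 3536 and 4022 to 5191 (3 of 5 higher, median log2 difference 1.04), mostly from Flt3. Plasmacytoid dendritic cell markers summed to 15723 to 17232 and 10115 to 13227, mostly from Tlr7 and Spib, with Siglech at 0 to 10.5. Of the latter list 3 of 6 genes were lower, with a median log2 difference of -0.15. Stromal and endothelial markers summed to 1710.2 to 1927 and 1243 to 1664 (2 of 10 lower, 2 higher), mostly from Pecam1. That list's median log2 difference was 1.25, so its sum and its median went opposite ways. Such sums follow their highest genes and do not measure the number of these cells. Erythroid markers summed to 96.4 to 146 and 92.1 to 285 (1 of 3 lower, 1 higher), and mast cell and basophil markers to 11.7 to 31.01 and 16.3 to 82.4 (0 of 2 called). No listed marker was at 0 in every library, and the part of these cell types in the Ly6 values was not tested.

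The next comparison asked whether other genes of the chromosome region differed as well, and these genes were not chosen from the contrast one by one. Within 1 Mb of the outermost members, 26 protein-coding neighbours were tested, of which 7 fell and 2 rose, at 26.9% and 7.69% of those tested against 14.6% and 13.4% of all genes. The median log2 difference of the neighbours was -0.03, close to that of all genes. The largest falls were next to Ly6d. Lynx1, a Ly6/uPAR protein that acts on nicotinic acetylcholine receptors, had 692, 732 and 621 normalised reads in WT and 317, 343, 299 and 284 in cKO MED1. It fell by 1.13 on the log2 scale (SE 0.11, adjusted p = 9.08e-05) and was called under all 18 alternatives. Them6, a thioesterase superfamily member, had 441, 427 and 311 normalised reads in WT and 154, 208, 220 and 152 in cKO MED1, and fell by 1.098 (SE 0.17, adjusted p = 0.00227). The Ly6/uPAR gene 2010109I03Rik, the only gene called among the 6 tested that lie between the outermost members, went from 56.7 ± 5.39 normalised reads in WT (SD, n = 3) to 32.3 ± 6.59 in cKO MED1 (SD, n = 4). Its fall of 0.81 on the log2 scale (adjusted p = 0.0291) was not called in 7 of 18 alternatives, among them each fit without a WT replicate.

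The other called neighbours lay on the far side of Ly6c2. Puf60, a splicing factor, fell by 0.55 on the log2 scale (adjusted p = 0.0067). Top1mt, the mitochondrial topoisomerase, fell by 0.45 (adjusted p = 0.0232), Pycrl, a proline synthesis enzyme, by 0.39 (adjusted p = 0.0235) and Eef1d, a translation elongation factor subunit, by 0.35 (adjusted p = 0.0249). Naprt, which makes NAD from nicotinic acid, rose by 0.49 (adjusted p = 0.0253). Mapk15, an atypical MAP kinase, rose by 2.16 (adjusted p = 0.049) from 1.84 ± 1.00 normalised reads in WT (SD, n = 3) to 12.99 ± 7.65 in cKO MED1 (SD, n = 4). Without WT replicate 1, 3 protein-coding neighbours were called lower and 0 higher, without cKO MED1 replicates 3 and 4 it was 4 and 1, and with sex as a covariate 1 and 0. Top1mt, Pycrl, Eef1d and Naprt lost their calls in 4 to 7 of 18 alternatives, and Mapk15 in 6 of 12.

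**Figure D3:**
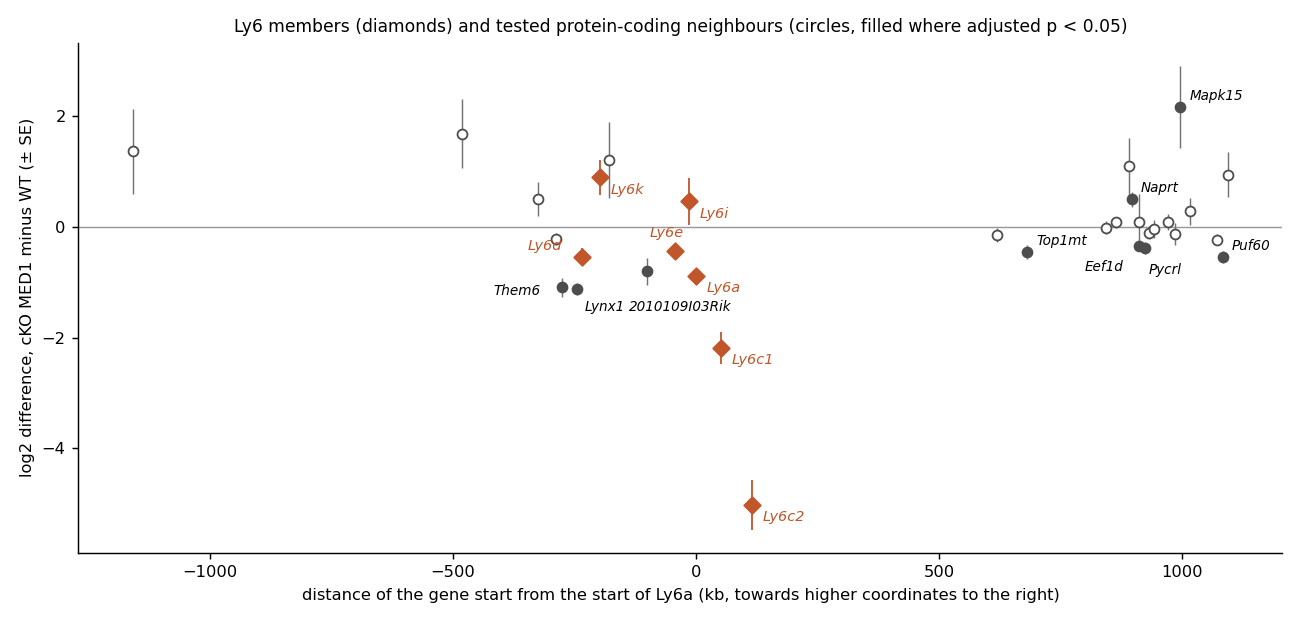
Log2 difference, cKO MED1 minus WT, with SE (y axis) against the distance of each gene's start from the start of Ly6a (x axis, kb). Diamonds are the 7 Ly6 genes, and circles are the tested protein-coding neighbours, filled where the adjusted p is below 0.05. Ly6c2 at -5.02 lies lowest, and the neighbours scatter around 0, with Lynx1 at -1.13 the lowest of them.

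Relatives of the family were scarce in these cells. Of 19 further Ly6/uPAR gene symbols listed for the cluster, 14 were in the table and 3 passed the filter. Of these 3, 2 fell, Lynx1 and 2010109I03Rik, and 0 rose (66.7% and 0%, against 14.6% and 13.4% of all genes). Gml, the third, had a log2 difference of 1.20 and an adjusted p of 0.195. Ly6g, the antigen of neutrophils, had 0.688 to 10.98 normalised reads, Ly6f 0 to 29.3 and Ly6h 2.07 to 58.6, and none of them passed the filter. Of 19 relatives on other chromosomes, 6 were tested, of which 1 fell and 3 rose (16.7% and 50%, against the same 14.6% and 13.4%). Plaur, the urokinase receptor, had 104, 97.1 and 109 normalised reads in WT and 32.5, 22.4, 19.8 and 34.8 in cKO MED1, and fell by 1.91 on the log2 scale (SE 0.25, adjusted p = 0.000718). All of its cKO MED1 libraries were below WT, and it was called under all 18 alternatives. The complement inhibitor genes moved the other way. Cd59a rose from 16.9 ± 8.80 normalised reads in WT (SD, n = 3) to 61.4 ± 16.6 in cKO MED1 (SD, n = 4) (log2 difference 1.86, adjusted p = 0.00509), and Cd59b from 5.10 ± 1.18 to 17.1 ± 6.06 (1.52, adjusted p = 0.0396). Lypd1 rose from 3.73 ± 2.67 to 25.6 ± 14.4 normalised reads (2.58, adjusted p = 0.0147). Cd59b lost its call in 10 of 16 alternatives and Lypd1 in 3 of 17. Those low genes rose in the group with the higher level on silent genes, and the part of that background in their rise was not tested.

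Because several Ly6 genes are interferon-induced, 34 interferon-stimulated genes were set beside them. Of these, 21 fell and 0 rose, at 61.8% against 14.6% of all genes, and the median log2 difference was -0.83 with 33 of 34 below 0. Xaf1, at 0.24 (adjusted p = 0.364), was the exception. The smallest adjusted p-values were those of Gbp2, a guanylate-binding GTPase, which fell by 0.85 on the log2 scale (SE 0.12, adjusted p = 0.00105), and Bst2, the GPI-anchored virus tether, which fell by 1.13 (SE 0.16, adjusted p = 0.00117). Isg15, a ubiquitin-like protein, fell by 0.94 (SE 0.16, adjusted p = 0.00344), and Rtp4 by 1.48 (SE 0.27, adjusted p = 0.00439). Without cKO MED1 replicates 3 and 4, 13 of the list were called lower, beside 1276 of the 17396 genes tested in that fit. With sex as a covariate 0 were called at the adjusted threshold by limma. The list's median log2 difference in that fit was -0.72, against 0.01 over all genes. Over the other alternatives 17 to 31 were called. With total reads or the authors' scaling it was 31, where the median of all genes also lay lower, at -0.21 and -0.10.

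By library, the interferon list and the Ly6 genes were not ordered alike. The list's mean, on the log2 scale and relative to the WT mean, was 0.02, 0.20 and -0.22 in WT and -0.39, -1.36, -0.73 and -0.66 in cKO MED1. Ly6a, Ly6c1, Ly6c2 and Ly6e were highest in WT replicate 3, where the list was lowest among the WT libraries. Ly6d was nearly equal in WT replicates 2 and 3. In cKO MED1 replicate 2 both the list and Ly6a, Ly6c1 and Ly6c2 were at their lowest. Ly6e and Ly6d had their lowest values in other libraries, replicates 4 and 1. The part of interferon signalling in the Ly6 values was not tested.

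**Figure D4:**
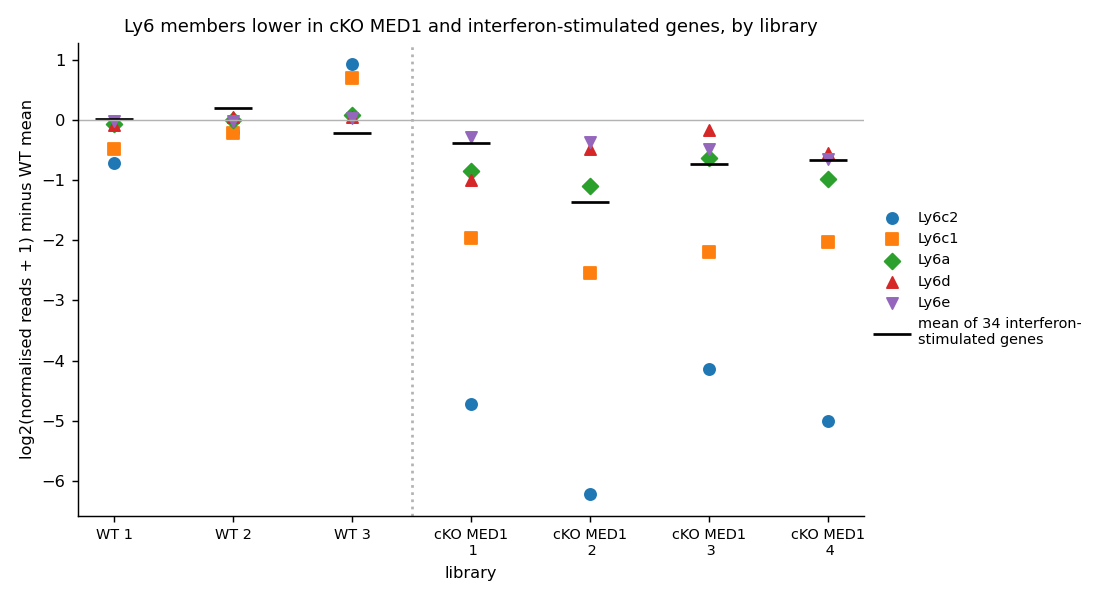
Log2(normalised reads + 1) minus the WT mean (y axis) by library (x axis) for the 5 Ly6 genes that were lower in cKO MED1 (symbols) and for the mean of 34 interferon-stimulated genes (black bars). The list's mean lies at -1.36 in cKO MED1 replicate 2, where Ly6c2 is lowest, and at -0.22 in WT replicate 3, where Ly6c2 is highest.

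Receptors and signalling genes of the interferon pathway showed no common direction. Of 15 tested, 3 fell and 3 rose (20% each, against 14.6% and 13.4% of all genes), and the median log2 difference was -0.13. Socs3, a feedback inhibitor of cytokine signalling, rose by 1.41 on the log2 scale (adjusted p = 0.00261), whereas its relative Socs1 fell by 0.61 (adjusted p = 0.00394). Irf8, a transcription factor of B and myeloid cells, fell by 0.50 (adjusted p = 0.00748), and Ifnar1, a chain of the type I interferon receptor, rose by 0.33 (adjusted p = 0.021). Ifnar1 lost its call in 7 of 18 alternatives, among them the authors' scaling and each fit without a WT replicate, and the other 3 genes lost theirs with sex as a covariate.

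Since most Ly6 proteins carry a GPI anchor, the genes that make and attach it were set beside them. Of 29 tested, 3 fell (10.3%, against 14.6% of all genes) and 0 rose (against 13.4%), and the median log2 difference was -0.05. Pigq, part of the enzyme of the first step, fell by 0.38 on the log2 scale (adjusted p = 0.0322). Gpaa1 (a fall of 0.38, adjusted p = 0.0465) and Pigt (a fall of 0.34, adjusted p = 0.0481) are subunits of the transamidase that attaches the anchor. They lost their calls in 8 to 10 of 18 alternatives, and 0 of the 29 were called lower without WT replicate 1, cKO MED1 replicate 3 or cKO MED1 replicate 4. Among 17 other GPI-anchored surface proteins tested, 2 fell, Plaur and Bst2, and 4 rose, Cd59a, Cd59b, Sema7a and Nt5e. These are 11.8% and 23.5% of the list, against 14.6% and 13.4% of all genes. Plaur, Cd59a and Cd59b were also counted among the Ly6/uPAR relatives, and Bst2 among the interferon-stimulated genes, so this list is not separate from those. Sema7a, a membrane-bound semaphorin, rose from 1267 ± 149 normalised reads in WT (SD, n = 3) to 2466 ± 178 in cKO MED1 (SD, n = 4) (log2 difference 0.96, adjusted p = 0.000178). Nt5e, the ecto-enzyme CD73, rose from 75.8 ± 7.71 to 229 ± 94.6 normalised reads (1.51, adjusted p = 0.00264). Among the called genes named here outside the family, Med1, Lynx1, Plaur and Sema7a were called under all 18 alternatives. Slfn1 was too, but it was picked by its likeness to Ly6c2, so its calls largely followed from that choice. Each of the others lost its call with sex as a covariate, leaving aside Lck, Pecam1, Tlr7, Spib and Flt3. Calls of those genes, named for their marker sums, were not followed through the alternatives.

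The genes whose pattern was most like a member's were found by Pearson correlation of log2(normalised reads + 1) over the 7 libraries, among 9904 genes with a mean of at least 100 normalised reads. All points share the gap between the groups, so these values are a description. Ly6a was closest to Ly6c2 (r = 0.99), Zfp597 (r = 0.98) and Slfn1 (r = 0.98), and 41 genes passed r = 0.95. A correlation takes no account of the size of a difference. Zfp597 held 90.7% of its WT level in cKO MED1 and was not called (limma adjusted p = 0.183). Ly6c2 was closest to Slfn1 (r = 0.99), a Schlafen gene, which had 269, 441 and 552 normalised reads in WT and 61.0, 47.8, 80.3 and 56.7 in cKO MED1. As with Ly6c2, WT replicate 3 was the highest of all libraries for Slfn1, and cKO MED1 replicate 3 the highest of its group. Slfn1 fell by 2.72 on the log2 scale (SE 0.24). It was picked by its likeness to Ly6c2 over these libraries, so a gap between the groups largely followed from the choice. No test of Slfn1 is therefore read as support.

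Ly6e had a large company, with 305 genes past r = 0.95, led by Gpalpp1 (r = 0.996), Gimap8 (r = 0.99), a GTPase of lymphocytes, and Zfp280b (r = 0.99). For Ly6d only 3 genes did so, Ddt (r = 0.97), a tautomerase related to MIF, Asb3 (r = 0.97) and Cdk7 (r = 0.95), the kinase of the general transcription factor TFIIH. Asb3 (88.2% of WT) and Cdk7 (82.8% of WT) were not called. For Ly6k it was 7 genes, led by Cacna1s (r = 0.98), Pla2g16 (r = 0.97) and Bfsp2 (r = 0.97). Pla2g16 (133% of WT) and Bfsp2 (123% of WT) were not called. Among the members, Ly6c1 and Ly6c2 were closest to each other after Ly6a and Ly6c2, at r = 0.98. Ly6d and Ly6e were less alike (r = 0.55), and Ly6k went against Ly6e (r = -0.83).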

How the data were processed

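The 7 members and all gene lists were chosen with earlier results of these data known. Per the labels' protocols, libraries were made from total RNA with a stranded kit after removal of ribosomal RNA (14 cycles, paired reads of 150 bp). The authors deposited a signal per gene, and its values were whole reads divided by a size factor per library, so that 100% of the values gave whole reads (tolerance 1e-06). The submitters' processing notes name GRCm38, the aligner STAR 2.4.0a, Subread 1.5.0-p3 with featureCounts, and DESeq2. They do not say whether counting used strand, so antisense genes cannot be told apart. The phiX174 row (at most 0.000383% of reads) was left out.

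Recovered reads (31937372 to 61149274 per library) were brought to 48080599 reads with TMM factors from edgeR 4.0.16, and 18062 genes passed filterByExpr. limma 3.58.1 with an intensity trend (R 4.3.3) was fitted on log2(normalised reads + 1), which understates changes of low genes, and adjusted by Benjamini-Hochberg (threshold 0.05). It was also run on simulated counts with known changes but no sex or background difference, which cannot show how calls behave under those. edgeR's quasi-likelihood test on the recovered reads called 5340 genes and limma 5065. Positions came from GENCODE vM21, which placed 94.0% of features; promoters came from RefSeq, whose table matched 2 of the 7 members.

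Named genes are the members, Med1, every called Ly6/uPAR relative and protein-coding neighbour within 1 Mb, up to 4 genes with the smallest adjusted p of each other list, and the 3 genes most correlated with each member of at least 100 normalised reads. Other genes were named after their values were seen. The 18 alternatives were RLE factors, total reads, the authors' scaling, all genes unfiltered, at least 1 CPM in 3 libraries, a pseudocount of 5, edgeR, DESeq2 1.42.0, a replicate block, sex as a covariate, each library left out, and cKO MED1 replicates 3 and 4 left out together. Background subtraction was added for the members after the files had been seen.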

Additional observations from a re-analysis of the deposited data

Results flagged for a closer look

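Of 80 genes, sums and ratios tested, 8 had a cKO MED1 library that lay apart from the other 3, with a gap to its neighbour, as a part of the group's range, above Dixon's critical value. Chance gives such a gap in about 1 of 20 groups of 4. Pigp, a GPI anchor synthesis gene that was not called, had 316 normalised reads in cKO MED1 replicate 1. Pla2g16 had 1304.9 and Bfsp2 397 normalised reads in the same library, each the lowest of its group, and both follow Ly6k in pattern. Sema7a was lowest in cKO MED1 replicate 4, at 2203 normalised reads, and Itgam, a myeloid integrin, was highest there, at 121. Replicate 3 lay apart for Ddx3y (4469.9 normalised reads, the highest), Xist (48.7, the lowest) and Jchain (27607, the highest), the joining chain of antibodies. No Ly6 gene had a library apart in this way.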

How the results depend on the processing

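The number of genes called was 5065 as reported, 228 with sex as a covariate, 2145 without cKO MED1 replicates 3 and 4, and 1556 (without WT replicate 1) to 6125 with 1 library left out. Over the lists set beside the Ly6 genes it was 47, 3, 28 and 29 to 64 in the same order. The higher share of all calls was 47.8%, against 37.3% with the authors' scaling and 31.8% with total reads. Over 19 alternatives the log2 difference of Ly6c2 ran from -5.46 to -4.13, of Ly6c1 from -2.47 to -1.89, of Ly6a from -1.13 to -0.63, of Ly6d from -0.79 to -0.17, of Ly6e from -0.69 to -0.32 and of Ly6k from 0.45 to 1.19. Over 18 alternatives that of Ly6i ran from -0.06 to 0.76, the 1 change of sign among the members. The deviations of same-numbered samples had correlations of 0.51, -0.23 and 0.16. They showed no pairing by number, but so few values, taken around group means, cannot exclude it. A replicate block gave 3741 genes called in all and 40 in the lists, and no WT library shares number 4. The causes of these shifts were not tested. Depth limits Ly6i and, in cKO MED1, Ly6c1 and Ly6c2, which had 14 to 59 reads in those libraries.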
